A study of Mus musculus with 4 samples.

Results

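Collagens are the main structural proteins of the skeletal matrix, and each of their chains is encoded by its own gene. All genes whose symbol is Col, a type number, the letter a and a chain number were taken, which gave 44 of the 32285 genes in the count files. They were grouped by the way the protein assembles. The 11 fibrillar chains form the banded fibrils of cartilage, bone, tendon and skin, and the 9 network chains form sheets such as basement membranes. The 9 fibril-associated collagens with interrupted triple helices (FACITs) sit on the surface of fibrils. A further 6 chains belong to type VI, which forms beaded filaments around cells. The remaining members were 4 transmembrane chains, 2 multiplexins, 1 anchoring fibril chain and 2 chains set apart as other.

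As background, cartilage fibrils are built of type II collagen with type XI inside and type IX on their surface, whereas fibrils of bone, tendon, ligament and fibrous tissue are built of type I with types III and V. Type VI surrounds chondrocytes and fibroblasts alike, and type X is laid down by hypertrophic chondrocytes. A synovial joint arises where cells of the cartilage template become the interzone, a layer marked by Gdf5 that turns down cartilage genes and gives rise to joint tissues.

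The study profiled single cells of presumptive knee joints dissected from the hindlimbs of mouse embryos and freed with collagenase, and asked what happens in the interzone when glucose uptake is lost. There were 2 control libraries, titled WT, 1 from E13.5 and 1 from E14.5, which are days of embryonic life. The study describes the E14.5 control of its mutants as carrying no Cre. The other 2 libraries, both from E14.5, were labelled Prx1Cre;Glut1f/f;Glut3f/+ and Prx1Cre;Glut1f/f;Glut3f/f, shortened below to Glut3f/+ and, as the study does, DCKO. Prx1Cre acts in the early limb mesenchyme, so that chondrocytes, interzone cells and fibroblasts of the limb all descend from targeted cells, and Glut1 and Glut3 are the glucose transporters encoded by Slc2a1 and Slc2a3. Whether embryos were pooled is not given in the sources used here. Each group has 1 library, so no difference below has a replicate check, and both mutant libraries are set against the same E14.5 control.

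The libraries held 12769, 9707, 11690 and 11602 cell barcodes with 100344565, 84188147, 97110697 and 91574038 unique molecular identifiers (UMIs) in the order E13.5 control, E14.5 control, library labelled Glut3f/+ and library labelled DCKO, which is kept wherever 4 values stand together. Filtering to 200 to 6000 genes and no more than 10% mitochondrial UMIs kept 12446, 9305, 11264 and 11305 cells, with a median of 6176.5, 7279, 6757 and 6379 UMIs. The libraries shared between 24 and 37 barcodes per pair, 174 barcodes in all. Cells were assigned to classes by gates that counted distinct markers and held no collagen gene, which placed 50.1%, 71.0%, 64.1% and 64.1% of the kept cells. Levels are UMIs summed over the cells of a class and library, as counts per 1000000 UMIs of that class (CPM). Because 1 tag is counted per molecule at its 3′ end, these counts do not grow with transcript length. Intervals are exact 95% intervals and cover counting error only.

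The labels were checked first. In the skeletal and connective classes Slc2a1 stood at 60.8, 75.7, 414 and 477 CPM, so that the libraries labelled with a deleted Glut1 held more of its UMIs than the E14.5 control, by a log2 ratio of 2.45 (2.41 to 2.50) in the library labelled Glut3f/+ and 2.66 (2.61 to 2.70) in the library labelled DCKO. Slc2a3 was low throughout, at 5.29, 2.90, 3.93 and 2.44 CPM. A 3′ tag outside the deleted exons would check nothing, and the labels do not say which exons are lost, so the mutants are named below by their labels. Sex differed as well: Xist UMIs were found in 64.7%, 0.172%, 92.2% and 91.2% of the kept cells and UMIs of Y-linked genes in 18.4%, 65.9%, 0.0355% and 0.0265%. At E14.5, sex and genotype therefore cannot be told apart, and neither can the mix of sexes and age between the controls.

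The classes used most were 1165, 4388, 4292 and 5386 chondrocyte-gated cells, 1705, 667, 695 and 292 interzone-gated cells, and 1475, 502, 864 and 607 fibroblast-gated cells. Cells that passed the gates of both interzone and chondrocyte (206, 272, 343 and 181) were kept apart. These gates divide a continuum. Of cells tested over all libraries, 5206 held just the minimum number of interzone markers and 8828 held 1 fewer. The counts were 3021 and 3171 for chondrocytes and 3693 and 8522 for fibroblasts. The interzone gate also needs Gdf5, so the cells counted for it need not all lie at its edge. The median chondrocyte-gated cell held 1 of 5 interzone markers and 2 of 8 fibroblast markers in every library. The median interzone-gated cell held 2, 1, 2 and 2 of 8 chondrocyte markers, whose summed level there was 667, 588, 645 and 623 CPM with Sox9 the most abundant. As a gauge of free RNA served erythroid-gated cells, which are not known as a source of collagen: Col2a1 was found there at 64.7, 51.6, 175 and 72.7 CPM and all members together at 0.0277%, 0.0202%, 0.0702% and 0.0473% of UMIs.

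Collagen UMIs made up 0.532%, 1.41%, 1.27% and 1.27% of all UMIs of kept cells. Prehypertrophic-gated cells, chondrocytes of the kind that secrete Ihh, gave them the largest share of any gated class in every library, at 1.42%, 2.15%, 2.14% and 1.71%. Chondrocyte-gated cells followed with 0.9501%, 1.83%, 1.62% and 1.45%, and interzone-gated cells held less, at 0.418%, 0.643%, 0.618% and 0.586%. Fibroblast-gated cells held 0.409%, 0.822%, 0.814% and 0.801%. The families divided the classes: fibrillar chains took the larger part everywhere in the skeleton, whereas FACITs reached 0.340%, 0.625%, 0.512% and 0.499% in chondrocyte-gated cells and 0.0320%, 0.0766%, 0.0666% and 0.102% in fibroblast-gated cells. Network chains were 0.151%, 0.202%, 0.241% and 0.227% of the UMIs of endothelial-gated cells, against 0.0111%, 0.0146%, 0.0119% and 0.00972% in chondrocyte-gated cells.

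At least 50 CPM in any gated class of at least 100 cells was reached by 26 members, which are described in turn. They comprise 9 of 11 fibrillar, 4 of 9 network, 6 of 9 FACIT and 3 of 6 type VI chains, 1 of 2 multiplexins, 2 of 4 transmembrane chains and 1 of 2 others. Over the classes with at least 100 cells in every library, prehypertrophic-gated cells held the highest level of 10, 9, 9 and 8 of the 26, fibroblast-gated cells of 12, 11, 15 and 16, interzone-gated cells of 3, 5, 1 and 0, and chondrocyte-gated cells of 1, 1, 1 and 2. Over all classes of at least 20 cells in the library, fibroblast-gated cells led for 6, 3, 4 and 3 and prehypertrophic-gated cells for 8, 8, 8 and 8, while osteogenic-gated cells led for 3, 7, 7 and 9, tendon-gated cells for 3, 3, 2 and 2 and endothelial-gated cells for 3, 3, 3 and 3.

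**Figure D1:**
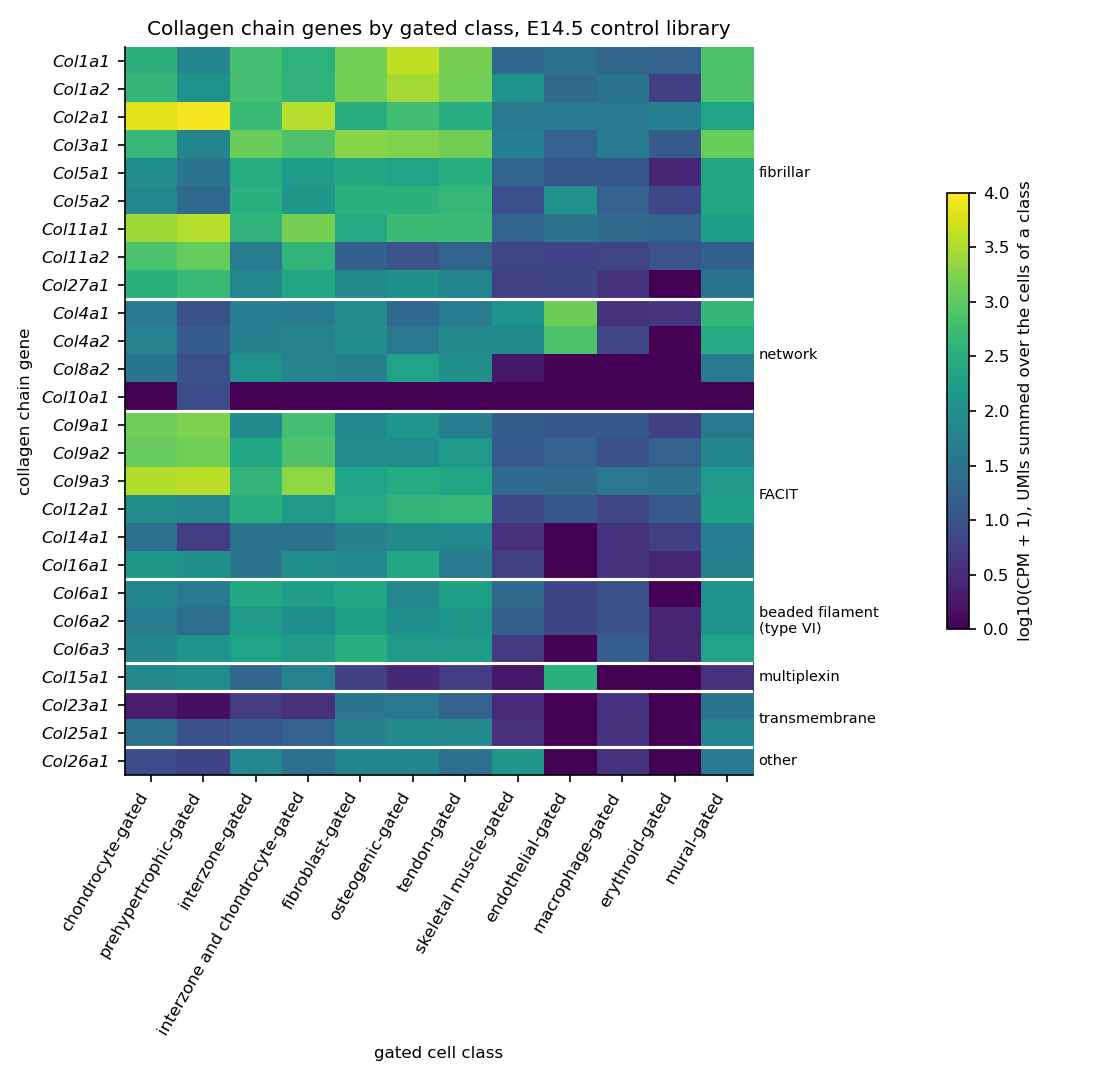
Levels of 26 collagen chain genes (vertical axis, grouped by family) in 12 gated cell classes (horizontal axis) of the E14.5 control library, as log10 of CPM plus 1. Types II, IX and XI are brightest in the prehypertrophic and chondrocyte columns, type I in the osteogenic column of 62 cells, Col3a1 in the fibroblast column, and Col4a1 and Col4a2 in the endothelial column of 25 cells.

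Col2a1 encodes the only chain of type II collagen, the chief fibril of cartilage, and was the most abundant member in chondrocyte-gated cells at 3275, 6378, 5923 and 5216 CPM. In prehypertrophic-gated cells it stood at 5545, 8606, 8959 and 6904 CPM. Interzone-gated cells held far less, with 841, 531, 896 and 854 CPM. Cells that passed both gates lay between, at 1957, 3617, 3904 and 3823 CPM. Fibroblast-gated cells held 209.9, 318, 229 and 489.5 CPM, above the erythroid-gated level of each library. The E14.5 control is the highest of the 4 libraries in chondrocyte-gated cells and the lowest in interzone-gated cells.

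The type XI chains, which set the width of cartilage fibrils, followed the same order of classes. Col11a1 was 1181, 2699.5, 2587 and 2152 CPM in chondrocyte-gated, 272, 397, 532 and 494 in interzone-gated and 105, 288, 264 and 364 in fibroblast-gated cells. Col11a2 was 304, 729.5, 669 and 609.8 CPM in chondrocyte-gated, 53.7, 47.02, 83.2 and 72.4 in interzone-gated and 11.5, 16.7, 17.2 and 24.1 in fibroblast-gated cells. The fibroblast-gated level is not above free RNA in every library. Erythroid-gated cells held 11 Col11a2 UMIs of 911354 at E13.5 and 10 of 303388 in the library labelled Glut3f/+, shares no lower than in fibroblast-gated cells. Col27a1, a fibrillar chain of thin cartilage fibrils, was less abundant, with 259, 375, 319 and 273 CPM in chondrocyte-gated cells, 119, 69.6, 88.9 and 89.8 in interzone-gated and 54.3, 81.9, 70.6 and 86.9 in fibroblast-gated cells, and 413, 516, 435 and 298 CPM in prehypertrophic-gated cells.

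Type IX is a FACIT built of 3 different chains, cross-linked to the surface of type II fibrils. Col9a3 was the most abundant of them, at 1816, 3509, 2727 and 2739.8 CPM in chondrocyte-gated cells, 631, 439, 624 and 763 in interzone-gated and 104, 206, 149 and 362 in fibroblast-gated cells. Col9a1 was 764, 1293, 1220.4 and 1127 CPM in chondrocyte-gated, 94.2, 77.8, 144 and 169 in interzone-gated and 50.5, 71.9, 52.1 and 119 in fibroblast-gated cells. For Col9a2 the levels were 704, 1185, 977 and 943 CPM in chondrocyte-gated, 318, 242, 301 and 252 in interzone-gated and 65.2, 82.9, 73.8 and 114 in fibroblast-gated cells. The fall from chondrocyte-gated to interzone-gated cells was thus steepest for Col9a1 in each library, the other 2 chains keeping more UMIs in the interzone.

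Type I collagen is the main fibril of bone, tendon and ligament. Col1a1, its α1 chain, was highest in osteogenic-gated cells, a class of 239, 62, 93 and 78 cells, at 845, 4209.8, 5266 and 3196 CPM. It was 648, 1531, 2372 and 1447 CPM in tendon-gated and 428, 1429, 1581 and 1408 CPM in fibroblast-gated cells. Interzone-gated cells held 209, 645, 387 and 399 CPM, and chondrocyte-gated cells 146, 369, 238 and 226 CPM. The α2 chain gene Col1a2 was 684, 2860.3, 3796 and 2476 CPM in osteogenic-gated, 788, 1479, 1557 and 1395 in fibroblast-gated, 219.97, 665, 567 and 568 in interzone-gated and 208, 447, 396 and 329.8 in chondrocyte-gated cells. Both chains were lowest at E13.5 in each of these classes.

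Col3a1 encodes type III collagen of loose and reticular tissue, and was 1202, 1969.9, 1881 and 1759.8 CPM in fibroblast-gated cells, 501, 1257, 1089 and 998 in interzone-gated and 310.1, 456, 395 and 316 in chondrocyte-gated cells. It was the most abundant member of fibroblast-gated cells in every library, and in interzone-gated cells it exceeded Col2a1 in each of the 3 E14.5 libraries. Type V chains start the assembly of type I fibrils. Col5a1 was 146, 294, 197 and 181 CPM in interzone-gated, 123, 267, 285 and 225 in fibroblast-gated and 70.2, 89.9, 82.6 and 67.9 in chondrocyte-gated cells. Col5a2 was 102, 341, 206 and 195 CPM in interzone-gated, 156, 360.2, 393 and 334 in fibroblast-gated and 40.98, 73.8, 62.3 and 44.4 in chondrocyte-gated cells.

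Type VI filaments are assembled from 3 chains that anchor cells to the surrounding matrix. Col6a1 was 92.3, 229.8, 229 and 159 CPM in fibroblast-gated, 74.3, 261, 222 and 146 in interzone-gated and 27.6, 67.3, 50.8 and 33.9 in chondrocyte-gated cells. For Col6a2 fibroblast-gated cells held 68.9, 187, 182 and 113 CPM, interzone-gated cells 45.6, 163, 133 and 91.5 and chondrocyte-gated cells 19.7, 46.1, 36.2 and 22.7. Col6a3 was 127, 324, 322 and 225 CPM in fibroblast-gated, 89.2, 211, 189 and 104 in interzone-gated and 41.7, 68.01, 57.1 and 46.7 in chondrocyte-gated cells. Each chain was lowest at E13.5 and, among the E14.5 libraries, lowest in the library labelled DCKO in all 3 classes.

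Among the FACITs of fibrous tissue, Col12a1, found along type I fibrils of ligament and tendon, was 160.1, 329.9, 169.8 and 168 CPM in interzone-gated, 65.7, 277, 238 and 251 in fibroblast-gated and 54.7, 92.3, 63.7 and 45.6 in chondrocyte-gated cells. In prehypertrophic-gated cells it was 16.7, 70.2, 32.2 and 14.98 CPM. Col14a1, its close relative, was lower, with 12.1, 54.7, 63.4 and 76.6 CPM in fibroblast-gated and 8.06, 33.04, 30.9 and 41.1 CPM in interzone-gated cells. Col16a1, a minor FACIT, was 42.1, 135, 104 and 101 CPM in chondrocyte-gated, 21.1, 71.7, 86.9 and 95.5 in fibroblast-gated and 17.99, 35.8, 34.1 and 34.2 in interzone-gated cells. Of these genes only Col16a1 was lower in interzone-gated than in chondrocyte-gated cells in every library.

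The basement membrane chains Col4a1 and Col4a2 were highest in endothelial-gated cells, a class of 47, 25, 49 and 66 cells. Col4a1 was 868, 1272, 1414 and 1409 CPM there and 257, 451, 570.4 and 562 CPM in mural-gated cells, against 34.1, 41.6, 36.3 and 28.04 in chondrocyte-gated, 38.7, 51.1, 36.1 and 27.2 in interzone-gated and 53.6, 85.3, 90.6 and 64.6 in fibroblast-gated cells. Col4a2 was 630.01, 753, 987 and 856 CPM in endothelial-gated cells, 37.5, 58.1, 42.6 and 33.2 in chondrocyte-gated, 36.96, 54.6, 41.6 and 42.3 in interzone-gated and 43.4, 89.1, 80.8 and 65.6 in fibroblast-gated cells. Col8a2, a short chain of hexagonal networks, was 131, 199, 187 and 167 CPM in osteogenic-gated, 44.5, 112, 62.4 and 53.9 in interzone-gated, 29.5, 53.5, 55.6 and 63.6 in fibroblast-gated and 27.2, 35.6, 32.5 and 29.8 in chondrocyte-gated cells.

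Col10a1, the type X chain and a classical mark of hypertrophic cartilage, was highest in prehypertrophic-gated cells of all gated classes, with 23.7, 7.26, 114 and 76.8 CPM there, from 146, 30, 692 and 559 UMIs. These are part of its 1971 UMIs in all kept cells, which include cells set in no class or under several gates. Chondrocyte-gated cells held 0.217, 0.0255, 0.309 and 0.69998 CPM, from 2, 1, 12 and 33 UMIs. The E14.5 control held 30 UMIs in 213 cells, against 692 UMIs in 322 cells of the library labelled Glut3f/+ and 559 UMIs in 420 cells of the library labelled DCKO. Over the E14.5 control this was a log2 ratio of 3.98 (3.45 to 4.55) and 3.403 (2.87 to 3.98), and the E14.5 control was itself below E13.5, at -1.71 (-2.33 to -1.13). The share of prehypertrophic-gated cells with a Col10a1 UMI was 14.1%, 5.63%, 23.3% and 16.0%, and 4.11%, 1.25%, 9.45% and 6.74% once each cell was thinned to 2000 UMIs, which left out none of these cells. In erythroid-gated cells it was 0 of 126, 78, 45 and 34 cells, which allows up to 2.89%, 4.62%, 7.87% and 10.3%. Median depth was 10382, 18554, 18367.5 and 15808.5 UMIs in prehypertrophic-gated cells and 6987.5, 8619.5, 6069 and 7136.5 in erythroid-gated cells. 

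The make-up of the prehypertrophic-gated class differed between libraries. Cluster 18, the prehypertrophic-named cluster, led by Ibsp, Smpd3 and Ihh, held 487, 102, 180 and 98 cells in all, against 538, 213, 322 and 420 prehypertrophic-gated cells. Ibsp is also on the osteogenic list, and Ifitm5 and Ostn are among the leading genes of the cluster too, so its name does not set it apart from osteogenic cells. Osteogenic markers in the gated cells summed to 501.9, 171, 260.4 and 133 CPM, with Runx2 the most abundant at 154, 68.04, 77.3 and 49.3 CPM and none of the 7 at 0. Within cluster 18 Col10a1 was 31.7, 15.4, 316 and 366 CPM, a log2 ratio over the E14.5 control of 4.36 (3.81 to 4.97) in the library labelled Glut3f/+ and 4.57 (4.01 to 5.18) in the library labelled DCKO. The part of make-up and of the osteogenic markers was not tested, and how far along the growth cartilage each dissection reached was not measured.

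The remaining named members are a multiplexin, transmembrane chains and Col26a1, which was set apart as other. Col15a1, a multiplexin, was 296, 342, 398 and 354 CPM in endothelial-gated cells, 48.4, 74.7, 73.9 and 73.99 in chondrocyte-gated and 18.3, 19.8, 25.7 and 22.01 in interzone-gated cells. Col23a1, a transmembrane chain, was 81.8, 36.3, 35.7 and 30.2 CPM in fibroblast-gated cells and 17.7, 4.07, 5.46 and 1.16 CPM in interzone-gated cells. Its level in chondrocyte-gated cells, 12.7, 1.02, 2.09 and 1.85 CPM, was highest at E13.5. Col25a1, a transmembrane chain needed for motor innervation of muscle, was 53.2, 54.7, 45.7 and 58.05 CPM in fibroblast-gated, 22.3, 11.9, 8.58 and 11.004 in interzone-gated and 12.8, 29.2, 25.2 and 19.8 in chondrocyte-gated cells. Col26a1 was 134, 129, 118 and 136 CPM in muscle-gated, 92.2, 64.97, 68.1 and 62.1 in fibroblast-gated, 58.05, 73.2, 64.7 and 44.6 in interzone-gated and 29.6, 7.09, 8.62 and 10.01 in chondrocyte-gated cells.

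The other 18 members peaked between 0.324 and 48.5 CPM in classes of at least 100 cells. They are Col4a3, Col4a4, Col4a5, Col4a6, Col5a3, Col6a4, Col6a5, Col6a6, Col7a1, Col8a1, Col13a1, Col17a1, Col18a1, Col19a1, Col20a1, Col22a1, Col24a1 and Col28a1. Some were high in small classes: Col18a1, the source of endostatin, reached 820 CPM (334 UMIs) in the 49 endothelial-gated cells of the library labelled Glut3f/+. Col20a1 reached 293 CPM, from 46 UMIs, in 10 glial-gated cells of the E14.5 control. Col24a1, a minor fibrillar chain of bone, peaked in osteogenic-gated cells at 36.0 CPM, and Col22a1, known from tissue junctions, at 26.0 CPM in the same class. Col4a3 was nearly undetected, with 16 UMIs in all kept cells.

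The first comparison asks what changes in controls from E13.5 to E14.5, between which the mix of sexes differed too. Members rose far more often than genes at large. With at least 10 UMIs in either library as the condition for a gene to be counted, and 1.5-fold as the limit for a rise or fall, 23 of 39 members rose in chondrocyte-gated cells (58.97%) against 11.2% of all genes, and 5 fell against 14.6%. In interzone-gated cells 16 of 34 rose (47.1%, all genes 11.4%) and 5 fell (all genes 13.3%). In fibroblast-gated cells 25 of 34 rose (73.5%, all genes 11.8%) and 2 fell (all genes 12.6%). The median log2 ratio of members was 0.75, 0.56 and 1.01 in these classes in turn, and that of all genes -0.11, -0.04 and -0.07. Scaling by TMM or DESeq2 factors moved the median of all genes in chondrocyte-gated cells by 0.16 and 0.15.

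Grouped by type after the values had been seen, the chains of cartilage and of fibrous tissue parted ways in the interzone. The 6 chains of types II, IX and XI all rose in chondrocyte-gated cells, with a median log2 ratio of 0.96, led by Col11a2 at 1.26 (1.21 to 1.32) and Col11a1 at 1.19 (1.16 to 1.22). In interzone-gated cells 5 of the 6 lay below 0, also under TMM and DESeq2 scaling, with a median of -0.33. Only Col2a1 passed the limit, at -0.66 (-0.73 to -0.59), and Col11a1 alone lay above 0, at 0.55 (0.46 to 0.64). The second group holds the 9 chains of types I, III, V, VI and XII that are among the 26 named members, and leaves out the sparse Col5a3, Col6a4, Col6a5 and Col6a6. Col14a1 and Col16a1, described above with Col12a1 as FACITs of fibrous tissue, are of other types and are not in it either. All 9 rose in interzone-gated cells, with a median of 1.60. They included Col6a2 at 1.84 (1.67 to 2.01), Col6a1 at 1.81 (1.68 to 1.95), Col5a2 at 1.74 (1.63 to 1.85) and Col1a1 at 1.63 (1.55 to 1.71). Sums of markers differed between the ages too. In chondrocyte-gated cells the chondrocyte markers, none of them a collagen, went from 3253 to 6237 CPM and osteogenic markers from 107 to 22.7 CPM, and in interzone-gated cells chondrocyte markers went from 667 to 588 CPM. Further, fibroblast markers went from 1450 to 2152 CPM and tendon markers from 119 to 176 CPM in interzone-gated cells, and fibroblast markers from 1878 to 3991 CPM in chondrocyte-gated cells. Their part was not tested.

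In fibroblast-gated cells all 9 of these chains rose as well, with a median of 1.32 and the largest ratio in Col12a1, at 2.07 (1.94 to 2.21). Of the chains left out, Col5a3 rose there at 3.51 (1.88 to 5.55), Col6a5 at 1.77 (0.44 to 3.14) and Col6a6 at 3.69 (2.73 to 4.79). In chondrocyte-gated cells 7 of the 9 rose, Col3a1 staying at 0.55 (0.50 to 0.61) and Col5a1 at 0.36 (0.23 to 0.48). Of the members that fell, Col23a1 did so in all 3 classes, at -3.64 (-4.20 to -3.11) in chondrocyte-gated, -2.12 (-2.96 to -1.39) in interzone-gated and -1.17 (-1.43 to -0.92) in fibroblast-gated cells. Col26a1 fell in chondrocyte-gated cells alone among the 3, at -2.06 (-2.31 to -1.81). Col28a1 fell in interzone-gated cells, from 31 UMIs to 0, and in fibroblast-gated cells, from 40 UMIs to 5, at -1.49 (-3.19 to -0.15), but was among the members that rose in chondrocyte-gated cells.

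In a division of all cells into 30 clusters made without collagen genes, part of the gated cells lay in different clusters at the 2 ages. Chondrocyte-gated cells had similar shares in cluster 7 (24.2 and 25.3%), cluster 2 (10.4 and 9.82%) and cluster 16 (10.5 and 10.2%), and fibroblast-gated cells in tendon-named cluster 9 (25.97 and 25.5%). Cluster 9 held a smaller share of fibroblast-gated cells in the libraries labelled Glut3f/+ and DCKO, at 15.3 and 11.5%. Cluster 28, led by Cytl1 and Gdf10, held 9.44, 39.02, 28.9 and 16.2% of chondrocyte-gated cells, and cluster 4, led by Twist2 and Runx2, held 24.5, 0.114, 0.0932 and 0.223%. Of interzone-gated cells, 40.3, 13.04, 25.8 and 11.6% lay in cluster 10, led by Gdf5 and Barx1, and 11.9, 28.8, 5.32 and 0.685% in cluster 24, led by Pax9 and Krt17. Of fibroblast-gated cells, cluster 1, led by Aldh1a2, held 38.98, 0.398, 0.347 and 1.15%, and cluster 26, named mural by its markers and led by Akap12, held 3.66, 31.5, 44.6 and 32.1%. No gene of the mural list is among the leading genes of cluster 26, so its name does not set it apart from fibroblasts.

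Within clusters the ages could be set side by side more closely. Over the cells of cluster 28 Col2a1 was 4020.4, 6792, 6721 and 6490.01 CPM, and in cluster 7, led by Epyc and C1qtnf3, it was 4526, 7394, 7468 and 5695 CPM. In interzone-named cluster 10, however, Col2a1 was 1395, 1951, 1992 and 1513 CPM, a log2 ratio of 0.48 (0.43 to 0.53) between the ages, so the fall of Col2a1 over all interzone-gated cells was not found there. In cluster 27, of cycling Gdf5 cells, Col2a1 was 1146, 1087, 1299 and 972 CPM, a ratio of -0.08 (-0.15 to -0.01), and in cluster 24 701 and 482 CPM at E13.5 and E14.5. Over the 687 and 87 interzone-gated cells of cluster 10 alone the ratio of Col2a1 was 0.22. Col1a1, in contrast, rose within cluster 10 by 1.03 (0.90 to 1.16) and within cluster 27 by 1.82 (1.69 to 1.95).

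**Figure D2:**
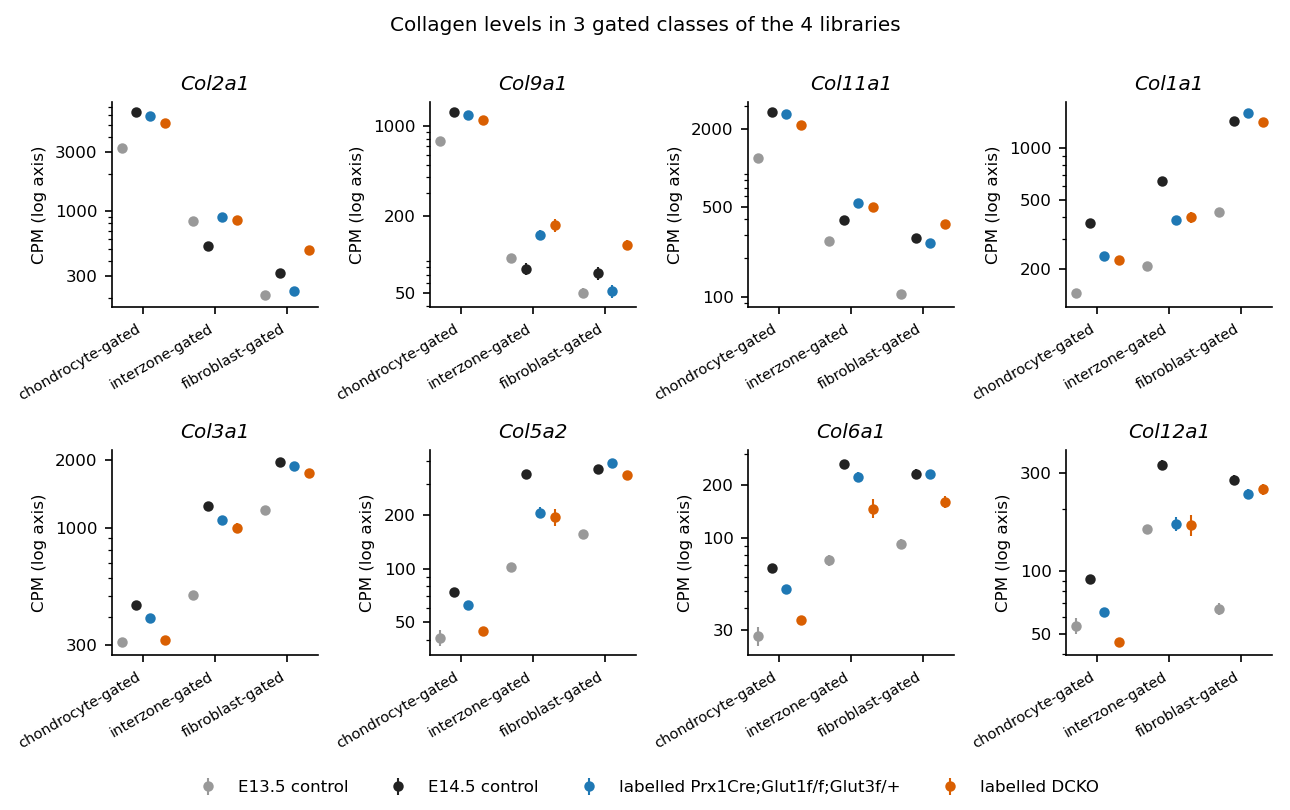
Levels of 8 collagen chain genes (CPM, log axes) in chondrocyte-, interzone- and fibroblast-gated cells of the 4 libraries; bars are exact 95% Poisson intervals. Col2a1 in interzone-gated cells is lowest in the E14.5 control (531 CPM), where Col1a1 is highest (645 CPM); within cluster 10 this order of Col2a1 is not seen.

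The second comparison sets the library labelled Glut3f/+ against the E14.5 control. Its Slc2a1 counts stood above that control, and whether they bear on the label is not known. The shares of members past the limit depended on the cells and genes taken. In chondrocyte-gated cells 5 of 41 were higher (12.2%, all genes 5.78%) and 6 lower (14.6%, all genes 7.63%), or 5 and 4 under TMM (all genes 7.18% and 5.55%) and under DESeq2 scaling (7.02% and 5.803%). In interzone-gated cells 3 of 31 were higher (9.68%, all genes 4.49%) and 8 lower (25.8%, all genes 10.7%), or 5 and 6 under TMM (all genes 6.501% and 7.53%) and 4 and 6 under DESeq2 (6.13% and 8.06%). In fibroblast-gated cells 1 of 34 was higher (2.94%, all genes 5.68%) and 4 lower (11.8%, all genes 5.45%), or 1 and 2 under TMM (all genes 6.51% and 4.48%) and DESeq2 (6.46% and 4.51%). Over the interzone-gated cells of cluster 10 alone, 0 of 23 members were higher and 1 lower, beside 12.1% and 13.9% of all genes. With clusters in place of gates 0 of 33 were higher in the interzone and 9 lower, beside 3.68% and 11.8%. With at least 100 UMIs, 0 of 28 were higher in chondrocyte-gated cells, beside 1.88%, and with the stricter cell filter 1 of 34 was lower in fibroblast-gated cells, beside 5.46%. TMM moved the median of all genes by 0.11 in chondrocyte-gated and 0.12 in interzone-gated cells, and DESeq2 by 0.10 in the latter.

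In interzone-gated cells the cartilage chains and the fibrous chains lay on opposite sides of the control. There the 6 chains of types II, IX and XI all lay above the control, under each scaling too, with a median log2 ratio of 0.63. Col9a1 was higher by 0.88 (0.68 to 1.09), Col11a2 by 0.82 (0.56 to 1.09) and Col2a1 by 0.76 (0.68 to 0.83). Free RNA is not subtracted from these values. In erythroid-gated cells all members together made up 0.0202% of UMIs in the control and 0.0702% in the library labelled Glut3f/+. The 9 chains of types I, III, V, VI and XII all lay below, with a median of -0.29, or -0.17 under TMM and -0.19 under DESeq2, beside -0.12 for all genes, and 3 past the limit: Col12a1 at -0.96 (-1.10 to -0.82), Col1a1 at -0.74 (-0.83 to -0.65) and Col5a2 at -0.73 (-0.86 to -0.60). Col8a2, a network chain, was lower too, at -0.85 (-1.08 to -0.62). In cluster 10, however, Col2a1 stood at 0.03, Col1a1 at -0.66 and Col12a1 at -0.58, so that Col1a1 kept its difference where Col2a1 showed almost none. Over the interzone-gated cells of cluster 10 alone Col11a2 stood at -0.0667. In cluster 6, closest to the interzone by its markers though not named for it, 5 of 28 members were higher and 6 lower. Of all genes, 5.47% and 10.7% were higher and lower there. Tendon markers in all interzone-gated cells went from 176 CPM in the control to 99.6 CPM, of which Scx gave 85.4 and 43.7 CPM, and chondrocyte markers from 588 to 645 CPM; their part was not tested.

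In chondrocyte-gated cells the 6 cartilage chains lay between -0.36 (Col9a3) and -0.06 (Col11a1), none past the limit, and 2 of the 6 turned above 0 under TMM or DESeq2. Col1a1 was the single fibrous chain of the 9 past the limit, at -0.63 (-0.67 to -0.60), and none was under TMM or DESeq2. In fibroblast-gated cells none of these 15 chains was past the limit, and 5 of the 6 cartilage chains lay below 0, with a median of -0.32, whereas Col5a3, which the list of 9 leaves out, was lower at -1.06 (-2.31 to 0.14), from 11 against 16 UMIs. Col6a6, also left out, was higher in chondrocyte-gated cells at 1.89 (0.79 to 3.14), from 33 against 9 UMIs. Of the 9 fibrous chains in fibroblast-gated cells 5 lay below 0, or 2 under either of these scalings. By their levels given above, Col14a1 and Col16a1, which are not among the 9, stood above the control there. Free RNA is not subtracted from these values, and it differed between the libraries. Erythroid-gated cells held 33 Col2a1 and 19 Col9a3 UMIs of 639653 in the control. In the library labelled Glut3f/+ they held 53 and 30 of 303388. How far this moves the cartilage chains of fibroblast-gated cells was not tested.

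The third comparison sets the library labelled DCKO against the E14.5 control. Here too Slc2a1 counts stood above the control, and whether they bear on the label is not known. In chondrocyte-gated cells 3 of 41 were higher (7.32%, all genes 6.996%) and 11 lower (26.8%, all genes 15.4%), or 5 and 9 under TMM (all genes 9.18% and 9.66%) and under DESeq2 (9.57% and 9.05%). In interzone-gated cells 4 of 31 were higher (12.9%, all genes 5.38%) and 15 lower (48.4%, all genes 17.7%), but over those of cluster 10 alone 1 of 22 was higher and 6 lower, beside 8.44% and 25.6% of all genes. In fibroblast-gated cells 4 of 33 were higher (12.1%, all genes 4.69%) and 7 lower (21.2%, all genes 7.82%). With 1 more marker per gate this became 10 of 31 higher and 6 lower there (all genes 6.71% and 9.62%), and with at least 100 UMIs 3 of 24 higher and 2 lower (all genes 0.663% and 1.92%), so that the direction with more members depended on the setting. Member medians were -0.38, -0.37 and -0.11, and medians of all genes -0.18, -0.13 and -0.05. TMM and DESeq2 moved the median of all genes in chondrocyte-gated cells by 0.16 and 0.19.

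Interzone-gated cells again combined more of the 6 cartilage chains with less of the 9 fibrous chains. All 6 chains of types II, IX and XI lay above the control, also under each scaling, and 4 passed the limit: Col9a1 at 1.12 (0.88 to 1.36), Col9a3 at 0.80 (0.69 to 0.90), Col2a1 at 0.69 (0.59 to 0.78) and Col11a2 at 0.62 (0.28 to 0.96). All 9 chains of types I, III, V, VI and XII lay below it, under each scaling too, with a median of -0.81 and 7 past the limit. Of these, Col6a3 stood at -1.02 (-1.27 to -0.79), Col12a1 at -0.97 (-1.16 to -0.79), Col6a1 at -0.84 (-1.04 to -0.64) and Col5a2 at -0.81 (-0.99 to -0.64). Col1a2 and Col3a1 did not pass, at -0.23 (-0.34 to -0.12) and -0.33 (-0.41 to -0.25). Col4a1 at -0.91 (-1.40 to -0.44) and Col8a2 at -1.06 (-1.40 to -0.73) were lower as well. Of the FACITs of fibrous tissue outside the 9, Col14a1 stood above the control by its level given above, and Col16a1 stood slightly below. Fibroblast markers in these cells summed to 1450, 2152, 2131 and 1891 CPM, of which Dlk1 gave 1197, 1836, 1853 and 1591 CPM, with none of the 8 at 0. Tendon markers moved with the fibrous chains in both mutant libraries: the list of 6 summed to 119, 176, 99.6 and 88.6 CPM in interzone-gated cells, of which Scx gave 86.1, 85.4, 43.7 and 36.5 CPM, with 1, 1, 1 and 0 of the 6 at 0. The interzone markers of the gate itself were lower in both mutant libraries too. They summed to 3593, 4138, 3408 and 2495.5 CPM, of which Sfrp2 gave 1930, 2513, 1958 and 1458 CPM. The part of each list in the collagen values was not tested.

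In chondrocyte-gated cells the 6 cartilage chains all lay below 0 with a median of -0.31, or -0.15 under TMM and -0.12 under DESeq2, and none passed the limit, Col2a1 standing at -0.29 (-0.30 to -0.28). The 9 fibrous chains had a median of -0.70, and 5 passed the limit, or 3 under TMM or DESeq2: Col6a2 at -1.02 (-1.13 to -0.91), Col12a1 at -1.02 (-1.10 to -0.94), Col6a1 at -0.99 (-1.08 to -0.90), Col5a2 at -0.73 (-0.81 to -0.65) and Col1a1 at -0.70 (-0.74 to -0.67). Fibroblast markers moved the same way in these cells: the list of 8 summed to 1878, 3991, 3352 and 2915 CPM, of which Dlk1 gave 1623, 3743, 3115 and 2675 CPM, with 1 of the 8 at 0 in the E13.5 control and 1 in the library labelled DCKO. Tendon markers there summed to 35.2, 39.3, 33.9 and 21.9 CPM, led by Scx at E13.5 (22.3 CPM) and by Fmod in the others (27.2, 20.7 and 10.9 CPM), with none of the 6 at 0. Chondrocyte markers, none of them a collagen, summed to 3253, 6237, 5349 and 5044 CPM in these cells and so were lower in both mutant libraries too. The part of each list in the collagen values was not tested.

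In fibroblast-gated cells the 6 cartilage chains all lay above the control with a median of 0.58, unlike in the library labelled Glut3f/+, and 3 were past the limit: Col9a3 at 0.82 (0.69 to 0.94), Col9a1 at 0.73 (0.52 to 0.94) and Col2a1 at 0.62 (0.52 to 0.72). Of the 9 fibrous chains only Col6a2 was past the limit, at -0.72 (-0.89 to -0.55), and Col12a1, at -0.14 (-0.27 to -0.02), was close to the control. All 9 lay below 0, or 8 under TMM or DESeq2. By their levels given above, Col14a1 and Col16a1, which are not among the 9, stood above the control. Of the sparse chains outside the 9, Col5a3 was lower at -1.93 (-3.97 to -0.29) (4 against 16 UMIs), Col6a5 at -2.51 (-5.71 to -0.34) (2 against 12 UMIs) and Col6a6 at -2.25 (-3.39 to -1.25) (10 against 50 UMIs). Chondrocyte markers in fibroblast-gated cells summed to 162, 236, 178 and 258 CPM with Sox9 the most abundant and none of the 8 at 0, and their part was not tested. Cluster 21, closest to chondrocytes by its markers, held 2.39% of fibroblast-gated cells in the E14.5 control. It held 1.39% in the library labelled Glut3f/+ and 4.12% in the library labelled DCKO, and its part was not tested.

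Prehypertrophic-gated cells held less Col12a1 in both mutant libraries, at -1.12 (-1.39 to -0.86) in the library labelled Glut3f/+ and -2.23 (-2.56 to -1.91) in the library labelled DCKO. Between these mutant libraries Col6a3 in interzone-gated cells stood at -0.87 (-1.11 to -0.63), DCKO over the other, whereas Col2a1 stood there at -0.07 (-0.16 to 0.02).

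The gated cells of the mutant libraries came in part from clusters that hold few control cells. Cluster 29, led by Car9, Ndufa4l2 and Slc2a1, held 0.343, 0.0456, 20.2 and 16.005% of chondrocyte-gated cells, and cluster 23, led by Nupr1 and Snorc, held none of them in the E13.5 control and 0.114, 3.84 and 17.5% in the others. Whether these clusters are cell types or traits of the libraries was not tested. In cluster 29 Col2a1 was 4493 and 3908 CPM in the libraries labelled Glut3f/+ and DCKO, and in cluster 23 it was 8525 and 6206 CPM. Col1a1 was 64.4 and 55.2 CPM in cluster 29 and 70.98 and 81.4 CPM in cluster 23, below its level in clusters 28 and 7 of the same libraries. Of interzone-gated cells, 4.87, 28.2, 27.1 and 16.4% lay in cluster 6, led by Rgs5 and Ralyl, and 3.34, 11.2, 17.4 and 26.03% in cluster 19, led by Gria2 and Ly6h. Cluster 21, led by Ecrg4 and Cytl1 and closest to chondrocytes by its markers, held 0.0587, 0.8996, 3.31 and 13.4% of interzone-gated cells. Cluster 29 held none of them in the controls and 1.73 and 4.11% in the mutant libraries. The part of these cells in the higher cartilage collagen of interzone-gated cells was not tested.

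Within shared clusters several differences between the library labelled DCKO and the control were smaller or absent, and others were as large. In cluster 28 Col2a1 stood at -0.07 (-0.08 to -0.05), Col9a1 at 0.01 (-0.03 to 0.05) and Col1a1 at -0.03 (-0.12 to 0.05), whereas Col6a3 was lower, at -0.99 (-1.22 to -0.77), as were Col6a1 at -0.66 (-0.85 to -0.48) and Col12a1 at -0.62 (-0.80 to -0.45). In cluster 7 Col2a1 stood at -0.38 (-0.39 to -0.36), Col6a1 at -0.92 (-1.16 to -0.70) and Col12a1 at -0.77 (-0.99 to -0.56). Lower Col6a1 and Col12a1 were thus found in both of these chondrocyte-named clusters.

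For the interzone, cluster 10 gave Col2a1 at -0.37 (-0.46 to -0.28) and Col9a1 at -0.11 (-0.33 to 0.10), so that the higher cartilage collagen of all interzone-gated cells was not found within it. In cluster 27 Col2a1 stood at -0.16 (-0.29 to -0.03) and Col9a1 at -0.01 (-0.34 to 0.31). Col6a3 was lower in both, at -1.10 (-1.50 to -0.72) in cluster 10 and -0.76 (-1.14 to -0.40) in cluster 27, and Col12a1 stood at -0.68 (-1.02 to -0.36) and -0.54 (-0.82 to -0.27). Col1a2 stood above the control in cluster 10, at 0.51 (0.31 to 0.71). Cluster 6, closest to the interzone by its markers though not named for it, held more interzone-gated cells of the control than either. Over all its cells 3 of 27 members were higher and 8 lower, beside 8.74% and 17.3% of all genes. In cluster 10 the counts were 1 of 29 higher and 9 lower, beside 7.21% and 17.4%. Over the 34 interzone-gated cells of cluster 10 in the library labelled DCKO and the 87 of the control, Col2a1 was -0.20, Col9a3 -0.0616, Col11a2 -0.52, Col5a2 0.0231 and Col12a1 0.10, each turned from its sign over the whole class.

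**Figure D3:**
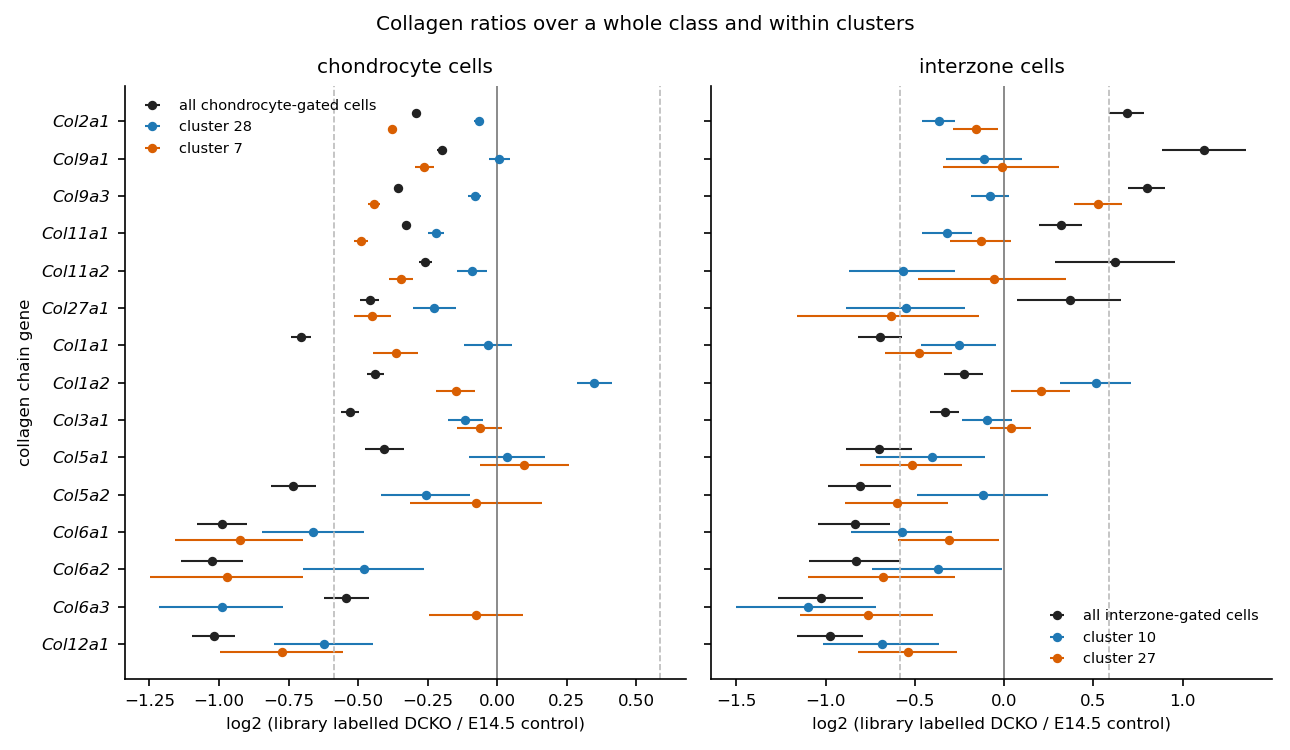
Log2 ratios (horizontal axis) of the library labelled DCKO over the E14.5 control for 15 collagen chain genes (vertical axis), over all gated cells and within clusters 28 and 7 (left) or 10 and 27 (right); bars are exact 95% intervals and dashed lines mark 1.5-fold. Col2a1 over interzone-gated cells is at 0.69 but at -0.37 in cluster 10 and -0.16 in cluster 27, whereas Col6a3 is below 0 in all 3.

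Chains that assemble together were compared by the ratio of their UMIs. How evenly the 3′ ends of different genes were captured was not measured, so these ratios do not give relative numbers of chains. Type I collagen is usually a heterotrimer with more α1 than α2, and Col1a2 per Col1a1 was 0.809, 0.679, 0.721 and 0.775 in osteogenic-gated cells, the lowest of the skeletal classes. In fibroblast-gated cells it went from 1.84 (1.78 to 1.90) at E13.5 to 1.04, 0.985 and 0.991 in the E14.5 libraries. Interzone-gated cells had 1.05, 1.03, 1.47 and 1.42 and chondrocyte-gated cells 1.43, 1.21, 1.67 and 1.46, so that both mutant libraries lay above the E14.5 control in these classes. Muscle-gated cells differed most, with 5.72, 5.24, 5.59 and 4.71, and they held 147, 107, 131 and 155 CPM of Col1a2.

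Type IX protein holds its 3 chains in equal numbers, which a ratio of UMIs does not measure. Col9a3 per Col9a1 was 2.38, 2.71, 2.23 and 2.43 in chondrocyte-gated and 6.69, 5.65, 4.35 and 4.51 in interzone-gated cells. Col11a1 per Col11a2 was 3.89, 3.7004, 3.87 and 3.53 in chondrocyte-gated, 5.06, 8.44, 6.39 and 6.82 in interzone-gated and 9.13, 17.2, 15.3 and 15.1 in fibroblast-gated cells. The low Col11a2 counts of fibroblast-gated cells are not set apart from free RNA. For type VI, Col6a1 per Col6a2 was 1.403, 1.46, 1.404 and 1.497 in chondrocyte-gated, 1.63, 1.601, 1.66 and 1.59 in interzone-gated and 1.34, 1.23, 1.26 and 1.399 in fibroblast-gated cells, but 1.03, 1.55, 1.296 and 1.91 in prehypertrophic-gated cells. Col6a3 per Col6a2 was 2.12, 1.48, 1.58 and 2.06 in chondrocyte-gated, 1.96, 1.29, 1.42 and 1.13 in interzone-gated and 1.84, 1.73, 1.77 and 1.99 in fibroblast-gated cells. Col4a1 per Col4a2 was 1.38, 1.69, 1.43 and 1.65 in endothelial-gated cells and 0.9101, 0.716, 0.854 and 0.844 in chondrocyte-gated cells. Col5a1 per Col5a2 was 1.43, 0.863, 0.955 and 0.932 in interzone-gated cells, highest at E13.5.

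**Figure D4:**
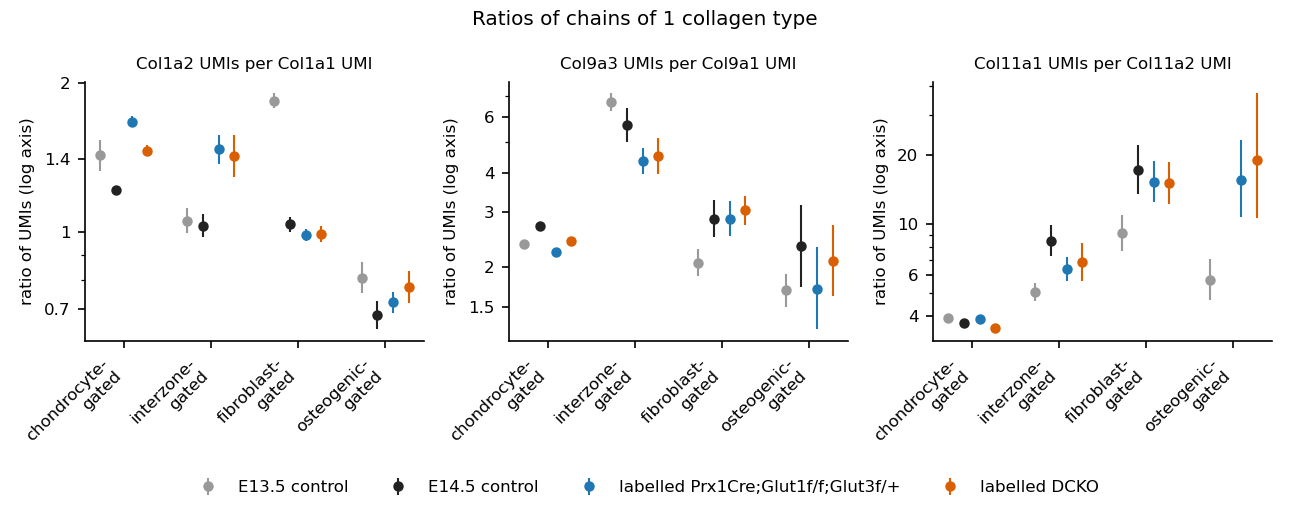
Ratios of UMIs of 2 chains (vertical axes, log scale) in 4 gated classes of the 4 libraries, with exact 95% intervals. Col1a2 per Col1a1 in fibroblast-gated cells is 1.84 at E13.5 and between 0.985 and 1.04 at E14.5, and Col11a1 per Col11a2 in fibroblast-gated cells is between 9.13 and 17.2.

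Collagen chains are hydroxylated, folded, trimmed and cross-linked by a common set of proteins, and 54 of 55 listed genes of these steps were in the files. From E13.5 to E14.5, 14 of 49 rose and 2 fell in chondrocyte-gated cells, 17 of 47 rose and 2 fell in interzone-gated cells, and 22 of 47 rose and none fell in fibroblast-gated cells, where 11.2% and 14.6%, 11.4% and 13.3%, and 11.8% and 12.6% of all genes rose and fell. In the library labelled Glut3f/+ 1 of 50 was higher and 4 lower than in the control in chondrocyte-gated cells, 1 of 46 and 7 in interzone-gated cells, and 2 of 47 and 3 in fibroblast-gated cells, beside 5.78% and 7.63%, 4.49% and 10.7%, and 5.68% and 5.45% of all genes. In the library labelled DCKO the counts were 3 of 50 higher and 5 lower in chondrocyte-gated, 1 of 44 and 14 in interzone-gated, and 0 of 46 and 1 in fibroblast-gated cells, beside 6.996% and 15.4%, 5.38% and 17.7%, and 4.69% and 7.82% of all genes. Their shares in chondrocyte-gated and fibroblast-gated cells of the library labelled DCKO were below those of all genes.

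Of the crosslinking genes, 3 of 4 counted in interzone-gated cells rose with age, beside 11.4% of all genes, and the same 3, Lox, Loxl1 and Loxl2, were lower in the library labelled DCKO, beside 17.7%; the median log2 ratio of all 4 there was -1.13. Loxl1, a lysyl oxidase-like enzyme that starts covalent crosslinks, was 22.95, 69.4, 29.6 and 20.8 CPM in interzone-gated cells, a log2 ratio of 1.60 (1.35 to 1.85) with age and -1.73 (-2.28 to -1.23) in the library labelled DCKO. Loxl2, its relative, was 95.8, 183, 111 and 60.2 CPM, at -1.60 (-1.91 to -1.30) in the library labelled DCKO. Plod2, which hydroxylates telopeptide lysines, was 147, 217, 127 and 93.2 CPM in interzone-gated cells, at -1.22 (-1.47 to -0.97). Each of these was highest in the E14.5 control, as types I, V and VI were. The genes listed for these steps were compared over whole gated classes only, not within clusters, and the part of make-up was not tested.

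Of the other lists in interzone-gated cells of the library labelled DCKO, 3 of 7 genes for propeptide cleavage were lower and 1, Pcolce2, was higher, and 2 of 14 for hydroxylation, 2 of 9 for folding and secretion, 2 of 5 for degradation and 2 of 5 receptors were lower, beside 5.38% of all genes higher and 17.7% lower. The counts for hydroxylation and for folding and secretion were thus near that share or below it. Pcolce, an enhancer of procollagen cleavage, was 44.8, 59.98, 47.8 and 31.9 CPM, Mmp2, a gelatinase, 59.3, 116, 105 and 53.3 CPM, and Fap, a protease of activated fibroblasts, 9.13, 64.8, 45.2 and 28.4 CPM. Itga11, the α chain of a receptor for type I collagen, was 22.6, 58.5, 43.4 and 20.3 CPM. The ratios to the control in the library labelled DCKO were -0.91 (-1.36 to -0.48) for Pcolce, -1.13 (-1.47 to -0.80) for Mmp2, -1.19 (-1.66 to -0.75) for Fap and -1.53 (-2.08 to -1.01) for Itga11. Of these genes, Fap is also among the leading genes of cluster 6.

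Other genes rose with age and stood within 1.5-fold of the E14.5 control in both mutants. Colgalt1, which adds galactose to hydroxylysine, was 57.7, 106, 91.01 and 89.2 CPM in interzone-gated cells, and Crtap, a partner of prolyl 3-hydroxylase, 46.5, 74.97, 73.8 and 63.7 CPM. P3h1, that hydroxylase, was 38.1, 75.2, 61.9 and 73.1 CPM in fibroblast-gated cells, and Ctsk, a collagen-degrading cathepsin, 38.4, 96.02, 96.1 and 100.01 CPM. Plod3, a lysyl hydroxylase, was 69.4, 137, 118 and 125 CPM in chondrocyte-gated cells.

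All 44 members were found in the GENCODE M21 annotation of mouse build mm10 (GRCm38), on 15 chromosomes, and 8 pairs of neighbours lay within 200000 bases of each other. Of these, 3 pairs start back to back: Col4a1 and Col4a2, whose annotated spans overlap by 22 bases, Col4a4 and Col4a3, 71 bases apart, and Col4a6 and Col4a5, 1308 bases apart. Col3a1 and Col5a2, which both rose with age in interzone-gated cells, are 24614 bases apart and are read toward each other. Windows from 250 bases before to 50 after the start, taken from RefSeq on the same build, covered 35 members with 38 windows. They were searched on both strands, with overlaps allowed, for the CCAAT box, for GGGCGG, a GC box, and for the motif TATAAA. The CCAAT box was in 13 of 38 windows against 37.4% of all 32851 windows, GGGCGG in 23 against 35.7%, and TATAAA in 5 against 13.6%.

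The windows of Col4a1 and Col4a2 are shown because this pair shares a start region and led endothelial-gated cells together. The Col4a1 window lies at chr8:11312777-11313076 on the minus strand and the Col4a2 window at chr8:11312555-11312854 on the plus strand, so that 78 bases are common to both. Each window overlaps an annotated exon of both genes, and the Col4a2 window also overlaps coding bases of Col4a1. Capitals mark CCAAT or GGGCGG on either strand, and a match is a description of the letters only.

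Col4a1: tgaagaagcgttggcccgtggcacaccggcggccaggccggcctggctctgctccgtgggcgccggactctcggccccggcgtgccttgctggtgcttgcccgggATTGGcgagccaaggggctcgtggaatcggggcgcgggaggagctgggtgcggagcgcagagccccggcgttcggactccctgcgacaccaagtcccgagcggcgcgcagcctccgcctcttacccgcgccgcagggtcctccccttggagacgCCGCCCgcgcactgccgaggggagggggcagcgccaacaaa
Col4a2: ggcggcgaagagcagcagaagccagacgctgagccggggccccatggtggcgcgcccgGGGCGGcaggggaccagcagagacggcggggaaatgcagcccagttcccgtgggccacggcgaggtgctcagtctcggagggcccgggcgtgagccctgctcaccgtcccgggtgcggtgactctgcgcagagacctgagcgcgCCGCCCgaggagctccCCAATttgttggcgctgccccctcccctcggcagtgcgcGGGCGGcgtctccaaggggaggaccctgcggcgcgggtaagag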

How the data were processed

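The deposited counts, made by the authors with Cell Ranger (6.1.2 per the file headers) on mm10, were used as raw UMI counts of 10x 3′ libraries; Seurat 3, named in the submitters' notes, was not rerun. Kept cells had 200 to 6000 genes and at most 10% mitochondrial UMIs. Gates needed 3 of 5 interzone markers with Gdf5 among them, 4 of 8 chondrocyte, 4 of 8 fibroblast or 4 of 6 prehypertrophic markers with Ihh among them; these minimums were chosen after the values had been seen. UMIs were summed per class and library and divided by the class total. Ratios are log2 of CPM, with exact conditional intervals and a count of 0 set to a floor of 3. A gene needed 10 UMIs in 1 of the libraries compared and was counted as higher or lower from 1.5-fold. Members with at least 50 CPM in a class of at least 100 cells are given in full, and of the maturation genes up to 12 with a 1.5-fold change. Members and lists were chosen with earlier results of these data known. The 30 clusters came from k-means on 30 dimensions of 2000 variable genes without collagens. Alternatives used edgeR 4.0.16 (TMM), DESeq2 1.42.0 and Scrublet scores in scanpy 1.11.5; the rest ran in Python 3.11.15 with numpy 2.4.6, scipy 1.17.1, pandas 2.3.3 and scikit-learn 1.9.0.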

Additional observations from a re-analysis of the deposited data

Results flagged for a closer look

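The following differences between gated classes stood out because a collagen chain gene moved in opposite directions in them. Between E13.5 and E14.5 controls the log2 ratio of Col2a1 was 0.96 in chondrocyte-gated and -0.66 in interzone-gated cells, 1.63 apart. For the same gene fibroblast-gated cells, at 0.60, stood 1.26 above interzone-gated cells. Over the interzone-gated cells of cluster 10 alone the direction of Col2a1 turned to 0.22. Col25a1 was at 1.19 in chondrocyte-gated and -0.90 in interzone-gated cells, 2.09 apart. Col27a1 was at 0.59 in fibroblast-gated and -0.77 in interzone-gated cells, 1.36 apart. In the library labelled DCKO against the E14.5 control, Col23a1 was at 0.85 in chondrocyte-gated and -1.81 (-4.98 to 0.28) in interzone-gated cells, 2.67 apart, the second from 2 against 16 UMIs. That direction turned to 0.42 with clusters in place of gates and to 0.15 with at most 1 chondrocyte marker. None of these differences was tested, and the cause was not tested.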

How the results depend on the processing

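Of 999 log2 ratios of named members under an alternative, 787 kept their value within the set margin, 198 moved and 14 turned direction. Of member counts 157 of 186 kept theirs, as did 41 of 42 counts of the highest class. All 48 shares of cells with a UMI moved once cells were thinned to 2000 UMIs. Chain ratios were recomputed under the stricter cell filter only, for Col1a2 per Col1a1, Col9a3 per Col9a1 and Col11a1 per Col11a2. All 36 kept theirs, and no other alternative was run for them. Over the 687, 87, 179 and 34 interzone-gated cells of cluster 10 alone, Col2a1 turned to 0.22 with age; Col11a2 to -0.0667 in the library labelled Glut3f/+; and in the library labelled DCKO Col2a1 to -0.20, Col5a2 to 0.0231, Col9a3 to -0.0616, Col11a2 to -0.52 and Col12a1 to 0.10, with Col23a1 at 0.46 against the other mutant. Counts of members past the limit are given below as the new count of those tested, with the share of all genes under the same setting. In these cells 2 of 28 (all genes 17.9%) in place of 5 were lower with age; in the library labelled Glut3f/+ 0 of 23 (all genes 12.1%) in place of 3 were higher and 1 (all genes 13.9%) in place of 8 lower; in the library labelled DCKO 1 of 22 (all genes 8.44%) in place of 4 was higher and 6 (all genes 25.6%) in place of 15 lower; and members highest in the interzone of the E14.5 control numbered 2. With 1 more marker per gate, Col15a1 in fibroblast-gated cells turned to -0.19 with age and 0.64 in the library labelled Glut3f/+, and in fibroblast-gated cells 2 of 31 (all genes 6.49%) in place of 1 were higher and 2 (all genes 7.72%) in place of 4 lower in that library and 10 of 31 (all genes 6.71%) in place of 4 higher in the library labelled DCKO. With clusters in place of gates, Col23a1 in the interzone turned to 0.42 in the library labelled DCKO and 0.11 against the other mutant, Col10a1 in chondrocytes to -0.16 against the other mutant, and in the interzone 3 of 33 (all genes 11.6%) in place of 5 were lower with age and 0 of 33 (all genes 3.68%) in place of 3 higher in the library labelled Glut3f/+. With at most 1 chondrocyte marker, Col23a1 in the interzone turned to 0.15 in the library labelled DCKO, and 8 of 32 (all genes 16.8%) in place of 5 were lower with age.

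With at least 100 UMIs, 3 of 29 (all genes 9.43%) in place of 5 were lower with age in chondrocyte-gated and 1 of 27 (all genes 8.37%) in place of 2 in fibroblast-gated cells. In the library labelled Glut3f/+ 0 of 28 (all genes 1.88%) in place of 5 were then higher and 3 (all genes 3.52%) in place of 6 lower in chondrocyte-gated cells, 4 of 22 (all genes 4.18%) in place of 8 lower in interzone-gated cells, and 0 of 25 (all genes 0.785%) in place of 1 higher and 1 (all genes 0.8601%) in place of 4 lower in fibroblast-gated cells. In the library labelled DCKO 0 of 28 (all genes 2.97%) in place of 3 were higher in chondrocyte-gated and 2 of 24 (all genes 1.92%) in place of 7 lower in fibroblast-gated cells. Without a minimum, 2 of 39 (all genes 8.24%) in place of 1 were higher in fibroblast-gated cells of the library labelled Glut3f/+. In interzone-gated cells of that library 5 of 31 (all genes 6.501%) in place of 3 were higher under TMM and 5 of 31 (all genes 5.15%) under the mean of CPM over cells. In its fibroblast-gated cells 2 of 34 (all genes 4.48%) in place of 4 were lower under TMM, 2 of 34 (all genes 4.51%) under DESeq2 and 1 of 34 (all genes 5.46%) with the stricter cell filter, and 0 of 33 (all genes 5.61%) in place of 1 were higher without the 8% highest doublet scores. In chondrocyte-gated cells of the library labelled DCKO 5 of 41 (all genes 9.18%) in place of 3 were higher under TMM and 5 of 41 (all genes 9.57%) under DESeq2. Scrublet's own calls marked 0 or 1 cells per library and were not used; the score rule, erythroid subtraction, the limit on chondrocyte markers and the single cluster were added after the data had been seen. Fibroblasts have no named cluster, so the cluster alternative was not run for them. The cause of each shift was not tested.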

Other observations

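P4ha2, a subunit of prolyl 4-hydroxylase and a leading gene of cluster 29, was 162, 206, 288 and 294 CPM in chondrocyte-gated cells. Over all its cells, cluster 29 held 1.14% and 0.990% collagen UMIs in the libraries labelled Glut3f/+ and DCKO, and cluster 23 held 2.10% and 1.64%, against 1.86% and 1.83% in cluster 28.

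Type II to type I balance, read as Col2a1 per Col1a1, was 22.5, 17.3, 24.9 and 23.05 in chondrocyte-gated, 4.03, 0.823, 2.32 and 2.14 in interzone-gated and 0.4902, 0.223, 0.145 and 0.348 in fibroblast-gated cells. Cells under several gates numbered 815, 649, 907 and 646, and cells under no gate 5395, 2048, 3135 and 3410. Macrophage-gated cells held 0.0824%, 0.0341%, 0.0386% and 0.0191% collagen UMIs.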
